A study of Mus musculus with 9 samples.

Results

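The regions described here are the SOX6 peaks of oligodendrocyte progenitor cells (OPCs), each set against the H3K27ac peaks of the oligodendrocytes (OLs) made from the same cell line. A SOX6 peak was placed in 1 of 4 classes by whether it overlapped, by 1 bp or more, an H3K27ac peak of its own line in OPCs and in OLs: in both, in OPCs only, in OLs only, or in neither. On chromosomes 1 to 19 there were 22320 such peaks in the line 129O1 and 15166 in the line EpiSC5, 37486 of the 165767 peaks in the 7 peak lists of the series. The study was a chromatin immunoprecipitation sequencing (ChIP-seq) experiment in mouse cells, with an antibody against SOX6 or against H3K27ac. Per the labels, the lines EpiSC5 and 129O1 are epiblast stem cell lines from the mouse strains 129SvEv and 129S1/SvImJ, and OPCs were derived from them without SHH. OPCs grew with bFGF and PDGFA, were purified once by flow sorting for CD140a and NG2, and were then expanded and frozen. The OLs were intermediate cells carrying O1, collected with OPCs on a magnetic sorter. Each list came from 1 library, no treatment or genotype was compared, and the 2 lines were the replicates.

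SOX6 is a transcription factor of the SOXD group, which binds DNA through an HMG box and has no transactivation domain of its own. With its relative SOX5 it is known for holding OPCs in the immature state, and its level falls as they differentiate. H3K27ac, an acetylated lysine of histone H3, marks active promoters and enhancers. A region with an H3K27ac peak in OLs and none in OPCs is called acetylated in OLs only, though a missing peak does not show that the mark was absent. The 4 classes therefore separate SOX6-bound regions by the H3K27ac peaks found over them in progenitors and in their O1-positive descendants.

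The lists differed in length. OPC SOX6 of 129O1 held more peaks than that of EpiSC5, as did its H3K27ac lists, with 29975 against 26967 peaks in OPCs and 33058 against 30443 in OLs. Without read counts in the lists the depth of the libraries is unknown, and the counting error in the presence or absence of a peak could not be estimated. Single markers differed between the states. Around Pdgfra, which encodes the CD140a receptor of OPCs, H3K27ac covered 15.2 kb and 13.1 kb in OPCs of 129O1 and EpiSC5 and 2.55 kb and 1.54 kb in OLs. Around Mag, a myelin protein gene, it covered 0 kb in OPCs of both lines and 4.46 kb and 8.34 kb in OLs. Over the whole lists the picture was less even: the 30 OPC genes summed to 344 and 274 kb in OPCs and 369 and 279.8 kb in OLs. These sums include Tnr, a gene of the list with far more H3K27ac in OLs, whose values are given further below. Without Tnr, the other genes of the list summed to less in OLs of each line. The 31 myelin genes summed to 99.2 and 85.7 kb in OPCs and 219.5 and 251 kb in OLs. Markers of other cells carried H3K27ac too, beside 12 housekeeping genes that summed to 54.0 and 44.0 kb in OPCs and 52.1 and 43.8 kb in OLs. The 12 microglia genes summed to 12.8 and 9.86 kb in OPCs and 13.9 and 9.06 kb in OLs, with 6 of them, Cx3cr1, Itgam, Trem2, C1qa, C1qb and Spi1, at 0 in all 4 lists. The 16 neuron genes summed to 65.1 and 51.3 kb in OPCs and 44.7 and 29.2 kb in OLs, with Stmn2, Gad2, Slc17a6 and Nefl at 0 throughout. The 14 astrocyte genes summed to 74.1 and 59.0 kb in OPCs and 88.6 and 49.4 kb in OLs, and none was at 0 throughout. The 14 pluripotency genes summed to 13.6 and 8.02 kb in OPCs and 9.74 and 3.53 kb in OLs, with Dppa4, Dppa5a, Fgf4, Utf1 and Otx2 at 0 throughout. Their part in the classes was not tested. In these bulk samples, fewer cells carrying a mark and less of it per cell cannot be told apart.

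Few SOX6 regions outside the class acetylated in both states lay on promoters, and those few can be read base by base. Promoter windows, of 250 bases before to 50 bases after a gene's start, came from RefSeq (GRCm38.p6, the assembly mm10 names). Of the 688 SOX6 sites that both lines placed in the OL-only class, 3 overlapped such a window (0.436%), at Ankrd6, Bmf and Prr5l. Ankrd6 encodes an ankyrin protein of Wnt signalling, Bmf a BH3-only protein that promotes apoptosis, and Prr5l a protein that binds the mTORC2 kinase complex. Their windows are shown as the full set that SOX6 sites of this class overlapped. H3K27ac over the windows themselves was not measured, and the class is that of the SOX6 site. Each window reads 5′ to 3′ along the minus strand, at chr4:32923456-32923755, chr2:118544538-118544837 and chr2:101882978-101883277. Capitals mark matches to ACAAT or ACAAAG, the short forms of the SOX recognition sequence, on either strand, so that ATTGT and CTTTGT are the same matches read on the other strand.
Ankrd6: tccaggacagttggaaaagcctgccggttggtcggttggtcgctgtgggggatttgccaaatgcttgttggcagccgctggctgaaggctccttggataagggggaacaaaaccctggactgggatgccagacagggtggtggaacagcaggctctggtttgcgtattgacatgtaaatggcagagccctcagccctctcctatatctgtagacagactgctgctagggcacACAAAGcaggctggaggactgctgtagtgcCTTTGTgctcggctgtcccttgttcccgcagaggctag
Bmf: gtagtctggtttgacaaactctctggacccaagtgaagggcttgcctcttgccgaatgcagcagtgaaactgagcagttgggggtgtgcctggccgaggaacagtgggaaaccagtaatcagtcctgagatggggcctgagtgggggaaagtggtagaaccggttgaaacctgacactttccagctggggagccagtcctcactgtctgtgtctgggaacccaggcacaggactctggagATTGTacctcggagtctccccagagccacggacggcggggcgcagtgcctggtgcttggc
Prr5l: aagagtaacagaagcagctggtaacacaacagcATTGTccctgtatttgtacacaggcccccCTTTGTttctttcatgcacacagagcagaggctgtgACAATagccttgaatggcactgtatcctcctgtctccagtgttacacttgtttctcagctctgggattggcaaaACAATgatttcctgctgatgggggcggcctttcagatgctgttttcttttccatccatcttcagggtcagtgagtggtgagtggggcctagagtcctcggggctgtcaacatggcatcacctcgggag
The SOX6 peak on Ankrd6 spanned 468 bp in 129O1 and 457 bp in EpiSC5, that on Bmf 318 and 263 bp, and that on Prr5l 289 and 309 bp. Ankrd6 held 2 matches, Bmf 1 and Prr5l 4.

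For contrast, the OPC-only class had 30 of 1637 sites on promoters (1.83%) and the class acetylated in neither state 12 of 1942 (0.618%). By the mean of the lines, the widest OPC-only sites on promoters lay on Pde1a, a cyclic nucleotide phosphodiesterase gene (797 and 624 bp in 129O1 and EpiSC5), and Cntn6, a contactin adhesion gene (613 and 559 bp). The widest of those acetylated in neither state lay on Map2k6, a kinase gene upstream of p38 (375 and 440 bp). Cntn6 and Map2k6 held 1 match each and this window of Pde1a held none. The windows are chr2:80128922-80129221 on the minus strand, chr6:104492794-104493093 on the plus strand and chr11:110479090-110479389 on the plus strand.
Pde1a: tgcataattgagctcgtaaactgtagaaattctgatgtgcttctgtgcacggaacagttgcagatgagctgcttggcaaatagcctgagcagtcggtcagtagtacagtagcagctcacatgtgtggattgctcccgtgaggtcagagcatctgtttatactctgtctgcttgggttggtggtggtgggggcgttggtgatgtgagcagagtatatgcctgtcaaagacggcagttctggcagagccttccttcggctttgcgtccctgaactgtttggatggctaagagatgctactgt
Cntn6: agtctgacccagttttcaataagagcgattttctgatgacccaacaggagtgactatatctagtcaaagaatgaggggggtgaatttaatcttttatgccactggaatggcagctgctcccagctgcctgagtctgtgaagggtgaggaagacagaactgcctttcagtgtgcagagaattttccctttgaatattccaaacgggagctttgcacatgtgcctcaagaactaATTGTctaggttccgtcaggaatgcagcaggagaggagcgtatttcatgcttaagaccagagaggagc
Map2k6: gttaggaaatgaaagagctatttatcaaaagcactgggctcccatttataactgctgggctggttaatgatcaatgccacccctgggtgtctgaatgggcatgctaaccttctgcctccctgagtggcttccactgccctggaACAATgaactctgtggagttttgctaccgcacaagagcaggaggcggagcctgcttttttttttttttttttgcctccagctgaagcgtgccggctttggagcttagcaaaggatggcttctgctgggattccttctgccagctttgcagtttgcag
In the class acetylated in both states, 1057 of 6152 sites lay on promoters (17.2%), over 1255 windows, of which 41.7% held at least 1 match. The share with a match was 17 of 34 windows (50.0%) for OPC only, 3 of 3 for OL only and 9 of 12 (75.0%) for neither, beside 38.0% of all 20085 windows. With so few windows in 3 of the classes, these shares are a description only.

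**Figure D1:**
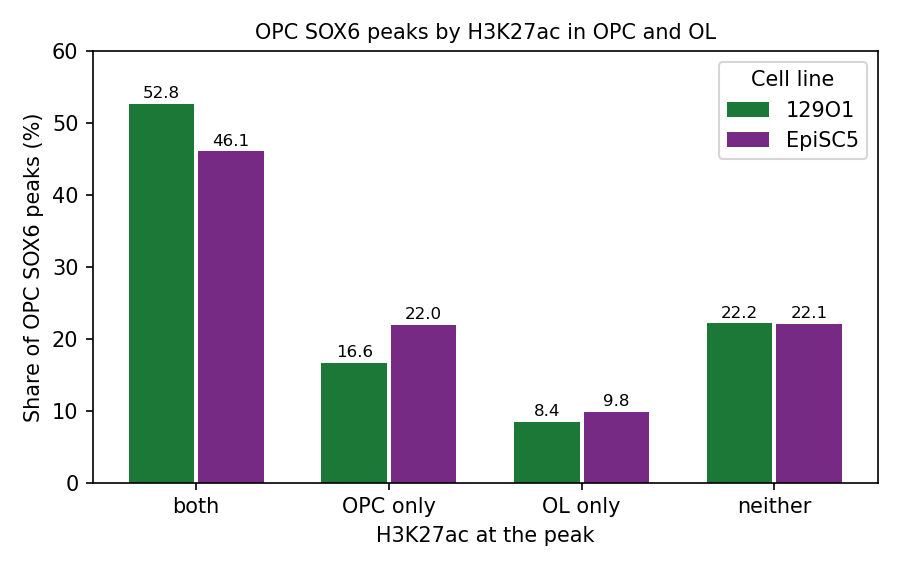
Share of OPC SOX6 peaks (y axis, percent of the peaks of a line) in each H3K27ac class (x axis) for the lines 129O1 and EpiSC5, with the value above each bar. In each line the class acetylated in both states is the largest (52.8% and 46.1%) and OL only the smallest (8.44% and 9.82%).

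Most OPC SOX6 peaks overlapped H3K27ac of OLs, counted with or without H3K27ac in OPCs. In 129O1, 13660 of 22320 peaks overlapped OL H3K27ac (61.2%), and in EpiSC5 8483 of 15166 did (55.9%). The class acetylated in both states was the largest, with 11776 peaks in 129O1 (52.8%) and 6994 in EpiSC5 (46.1%), or 49.4% ± 4.70 (SD, n = 2 lines). The OPC-only class held 3711 peaks (16.6%) and 3332 peaks (22.0%), or 19.3% ± 3.78. The OL-only class was the smallest in each line, with 1884 peaks (8.44%) and 1489 peaks (9.82%), or 9.13% ± 0.974. The class acetylated in neither state held 4949 peaks (22.2%) and 3351 peaks (22.1%), or 22.1% ± 0.0548. The plot of class shares shows that the lines differed most in the class acetylated in both states. Among the SOX6 peaks with the higher −log10 q, 50% of each list, the OPC-only class (16.9% and 21.7%) was larger than the class acetylated in neither state (15.3% and 16.6%). In EpiSC5 those 2 classes were level over the whole list, and with equal numbers of H3K27ac peaks OPC only was the larger there (23.9% against 22.95%), while in 129O1 it was the smaller (18.006% against 25.9%).

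Seen from OPCs, a SOX6 peak that was acetylated there was more often acetylated in OLs than one that was not. Of peaks with OPC H3K27ac, 76.0% in 129O1 and 67.7% in EpiSC5 also overlapped OL H3K27ac. Of peaks without it, 27.6% and 30.8% overlapped OL H3K27ac. The gap between these shares was larger in each line than the difference between the lines in either share. With or without SOX6, 20495 of 29975 OPC H3K27ac peaks in 129O1 and 16124 of 26967 in EpiSC5 overlapped OL H3K27ac. That count is per H3K27ac peak, and the shares above are per SOX6 peak. With 2 lines, an exact sign-flip permutation test cannot give a p below 0.5, so class shares carry no test. At the margin of the rule, 851 peaks in 129O1 and 649 in EpiSC5 overlapped OL H3K27ac with under 50% of their length covered (median width 331 and 320 bp). Just outside it, 419 and 396 peaks lay within 200 bp of OL H3K27ac without touching it (median width 263 bp in each line).

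**Figure D2:**
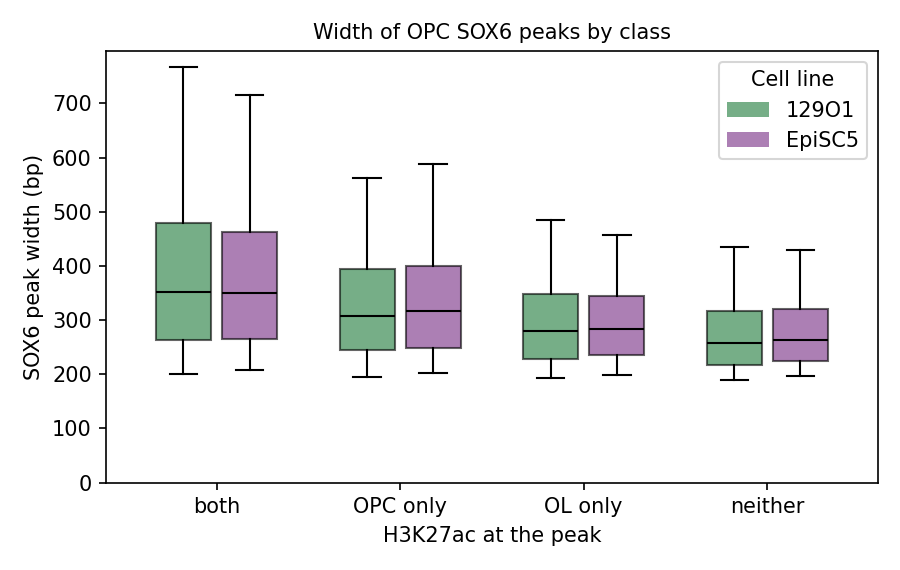
Width of OPC SOX6 peaks in bp (y axis) by H3K27ac class (x axis) and line, with boxes from the lower to the upper quartile, a line at the median and whiskers at the 5th and 95th percentiles. Medians fell from 351 and 350 bp in the class acetylated in both states to 258 and 263 bp in the class acetylated in neither.

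SOX6 peaks were widest where chromatin was acetylated in both states and narrowest where it was acetylated in neither. The median width was 351 bp in 129O1 and 350 bp in EpiSC5 for both states, 308 and 316 bp for OPC only, 280 and 283 bp for OL only, and 258 and 263 bp for neither. The order was the same in each line, and the lines differed within a class by at most 8 bp. Peaks over 500 bp made up 22.0% and 19.5% of the class acetylated in both states, 9.27% and 10.5% of OPC only, 4.46% and 2.55% of OL only, and 2.08% and 2.09% of neither. The plot of widths shows wide overlap between the boxes, so a class cannot be read from the width of a single peak.

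The authors' fold enrichment of SOX6 signal over background, given per peak, hardly differed between classes. Its median was 5.15 and 5.09 in 129O1 and EpiSC5 for both states, 5.34 and 5.03 for OPC only, 5.18 and 5.09 for OL only and 4.99 and 4.91 for neither. Their −log10 q was 23.2 and 24.2, 19.5 and 19.7, 16.8 and 18.3, and 14.6 and 16.1 in the same order. Some of the width order came with peaks that both lines held. Among peaks found in both lines the medians were 411 and 357 bp for both states, 344 and 324 for OPC only, 324.5 and 291 for OL only and 295 and 275 for neither. Among peaks found in 1 line they were 257 and 240, 249 and 239, 243 and 226.5, and 232 and 227 bp, a narrower spread, in which OL only and neither of EpiSC5 were level.

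The classes also differed in where they lay. Promoter windows took 20.4% and 15.7% of peaks acetylated in both states in 129O1 and EpiSC5, 2.59% and 4.35% of OPC only, 0.743% and 0.403% of OL only and 0.768% and 1.01% of neither. The median distance to the nearest promoter window was 20.7 and 27.8 kb for both states, 49.3 and 52.5 kb for OL only, 76.0 and 66.3 kb for OPC only and 79.7 and 80.6 kb for neither. OL-only peaks were thus nearer to promoters than OPC-only peaks in each line although fewer of them touched one. They were also more often inside a protein-coding gene body, at 63.3% and 57.5% against 49.5% and 50.3% of OPC-only peaks. For the other 2 classes that share was 69.4% and 66.3% (both states) and 46.2% and 46.9% (neither). A further SOX6 peak lay within 5 kb of 32.5% and 24.3% of peaks acetylated in both states, 18.5% and 14.0% of OPC only, 16.8% and 11.8% of OL only and 12.7% and 7.04% of neither.

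OPC-only SOX6 peaks mostly lay far from OL acetylation. OL H3K27ac lay within 1 kb of 11.0% and 11.9% of these peaks, and the median distance to it was 23.5 and 23.7 kb. OPC H3K27ac lay within 1 kb of 9.93% and 12.8% of OL-only peaks, at a median of 15.3 and 17.7 kb. Peaks acetylated in neither state lay at a median of 24.8 and 29.8 kb from OPC H3K27ac and 29.0 and 32.4 kb from OL H3K27ac. The H3K27ac peaks themselves were wider in the class acetylated in both states, with medians of 1993.5 and 1726.5 bp in OPCs and 1735 and 1614.5 bp in OLs. They measured 1203 and 1180 bp at OPC-only SOX6 peaks and 1237 and 1292 bp at OL-only ones, so those acetylated in 1 state were of like width whichever state it was.

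**Figure D3:**
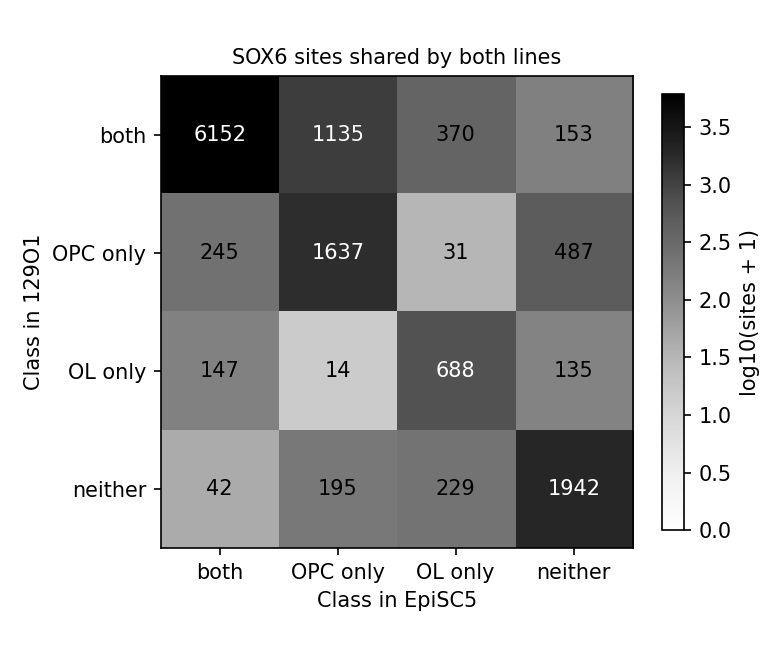
SOX6 sites held by OPCs of both lines, by class in 129O1 (rows) and in EpiSC5 (columns); numbers are sites and shading is log10 of sites plus 1. The diagonal holds 10419 of 13602 sites, and the cells that pair OPC only with OL only hold 31 and 14.

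The lines agreed on most sites that both held. SOX6 peaks of the lines merged into 23759 sites, of which 13602 were in both, 8687 in 129O1 alone and 1470 in EpiSC5 alone. Of the shared sites, 10419 had the same class in each line (76.6%): 6152 for both states, 1637 for OPC only, 688 for OL only and 1942 for neither. The commonest disagreement was 1135 sites acetylated in both states in 129O1 and in OPCs only in EpiSC5. Opposite classes, OPC only in 1 line and OL only in the other, were given to 45 sites (0.331%). The lines agreed on OPC H3K27ac at 89.4% of the shared sites and on OL H3K27ac at 85.4%. Where they did not, the mark was more often in 129O1, at 1041 against 398 sites for OPCs and 1437 against 547 for OLs, the line with the longer H3K27ac lists.

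Whether the other line held a SOX6 peak at all also varied with class. In 129O1, 66.5% of peaks acetylated in both states, 64.9% of OPC only, 52.2% of OL only and 48.7% of neither overlapped a SOX6 peak of EpiSC5. In EpiSC5 the shares were 95.2%, 89.9%, 88.7% and 81.1%. The order was the same in each line, and the shares were lower for 129O1, whose list was longer. With the 129O1 list shortened to the length of that of EpiSC5, they were 81.3%, 78.6%, 68.1% and 67.1% in 129O1 and 84.4%, 76.7%, 75.9% and 65.4% in EpiSC5. Among shared peaks, the same class was found in the other line for 78.8% and 93.5% of peaks acetylated in both states, 68.3% and 54.8% of OPC only, 69.9% and 52.2% of OL only and 80.7% and 71.5% of neither. The 2 classes acetylated in 1 state were thus the least repeatable in each line.

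SOX6 itself was also mapped in OLs of EpiSC5, in 1 library without a replicate. Of 6994 OPC SOX6 peaks acetylated in both states, 1191 overlapped an OL SOX6 peak (17.0%, Wilson 95% interval 16.2 to 17.9). Of 1489 OL-only peaks, 167 did (11.2%, 9.71 to 12.9). Of 3332 OPC-only peaks, 67 did (2.01%, 1.59 to 2.55), and of 3351 peaks acetylated in neither state, 55 did (1.64%, 1.26 to 2.13). In this library SOX6 was thus found again in OLs more often at peaks with OL acetylation, whether or not these were acetylated in OPCs. The intervals cover counting error over peaks only and say nothing of the spread between libraries. The OL SOX6 list had 3858 peaks on these chromosomes.

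The reverse view asked which acetylated regions SOX6 had occupied in OPCs. Of OL H3K27ac peaks already present in OPCs, 50.6% in 129O1 and 40.8% in EpiSC5 held OPC SOX6. Of OL H3K27ac peaks absent from OPCs, 13.0% (1615 of 12457) and 8.72% (1255 of 14384) did. OPC H3K27ac peaks that were absent from OLs held SOX6 at 33.2% and 26.1%, and those also in OLs at 51.4% and 41.6%. SOX6 in OPCs was thus less frequent at acetylation gained in OLs than at acetylation lost. The median width was 971 and 999 bp for the gained H3K27ac peaks, 908 and 823 bp for the lost ones and 1605 and 1445 bp for OPC H3K27ac peaks also in OLs. Per Mb of H3K27ac in 129O1 and EpiSC5, lost peaks that held SOX6 numbered 342 and 290, and gained ones 111 and 73.1. OPC peaks also in OLs that held SOX6 numbered 276 and 253 per Mb, below the lost ones, the reverse of their order by share. The part of width in these shares was not tested.

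For genes, a site was counted when both lines held it in the same class and it lay in the body of a protein-coding gene or within 10 kb of it. Of 20665 genes, 6605 had a SOX6 site of both lines (32% of genes). A site acetylated in both states was found at 4369 genes (21.1% of genes), an OPC-only site at 850 (4.11%), an OL-only site at 503 (2.43%) and a site acetylated in neither state at 1020 (4.94%). Genes with such sites were long. The median gene length was 32.7 kb for both states, 104 kb for OPC only, 80.3 kb for OL only and 106 kb for neither, beside 17.5 kb over all genes. A count of sites therefore moves with gene length. Where agreement of the lines was not asked for, 129O1 alone gave 7456, 1833, 1301 and 2228 genes for both states, OPC only, OL only and neither, and EpiSC5 alone 4706, 1785, 1002 and 1661. Genes with an OPC-only and an OL-only site numbered 55, led by Lsamp and Tenm2.

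For the genes named below, the length covered by H3K27ac in the same window (called breadth here) was compared between OLs and OPCs with limma, on log2 of scaled kb plus 1, over the 12114 genes whose mean was 1 kb or more. At an adjusted p below 0.05 and with the lines agreeing in sign, 12.7% of genes were wider in OLs and 16.9% narrower. An unadjusted p under 0.05 was found for 5454 genes. Of these 12114 genes, 1290 passed the 1 kb limit through OPCs alone and 441 through OLs alone and so had to differ, and they made 615 of the 2053 narrower calls and 305 of the 1543 wider ones. The 5 named genes of this kind, Enpp6, Mag, Mobp, Spry4 and Ccnd1, are given as values with no test. The median change over all genes was −0.24, or −0.12 without scaling the lists to equal covered length. Breadth and class come from the same H3K27ac lists, so a gene's breadth is no independent support for the class of its sites. All adjusted p-values below are from limma with Benjamini-Hochberg adjustment, and they measure only the spread between these samples.

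**Figure D4:**
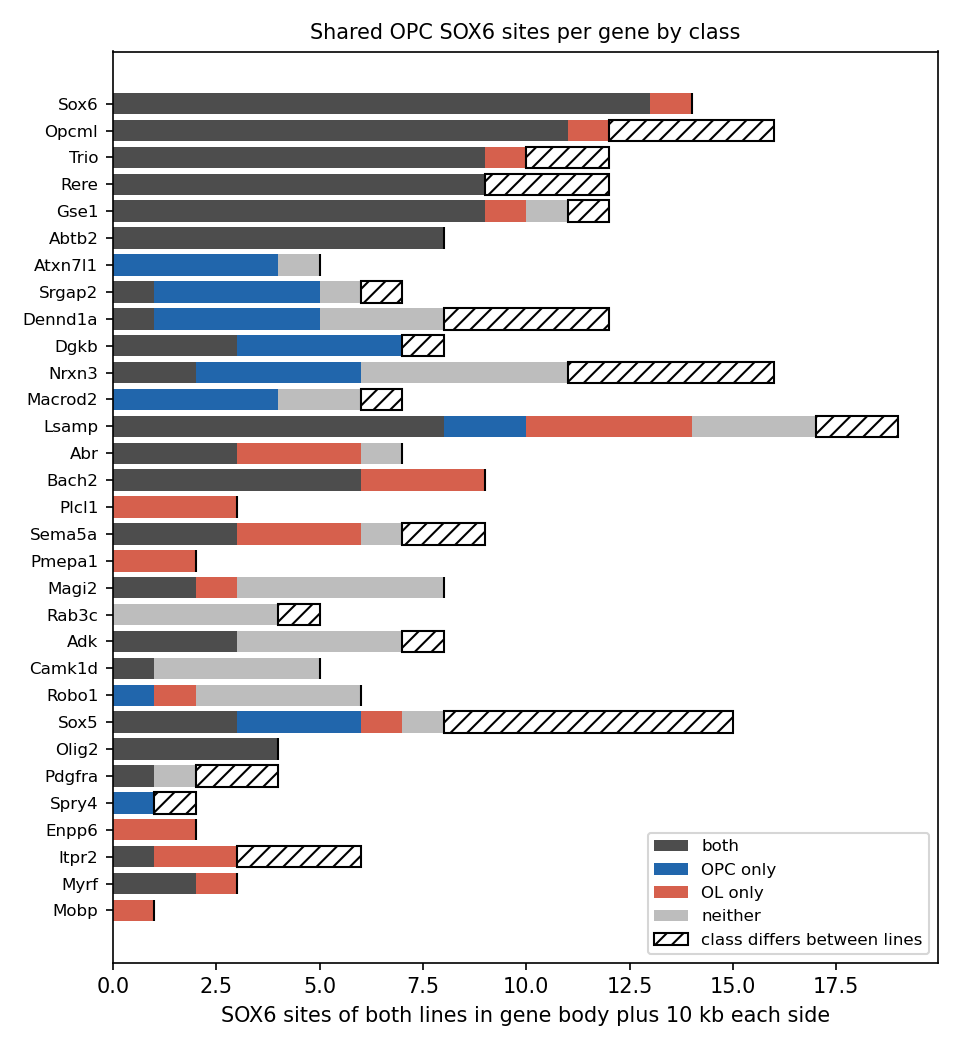
Number of SOX6 sites held by OPCs of both lines at each named gene (x axis: sites in the gene body plus 10 kb each side), coloured by H3K27ac class, with hatching where the lines gave different classes. Sox6 and Abtb2 are nearly or wholly made of sites acetylated in both states, and Enpp6, Plcl1, Pmepa1 and Mobp of OL-only sites.

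The gene with most sites acetylated in both states was Sox6 itself. It lies at chr7:115470872-116040776 and held 14 SOX6 sites of both lines, 13 acetylated in both states and 1 in OLs only. SOX6 peaks numbered 20 in 129O1 and 15 in EpiSC5 over this gene. The widest of them, at chr7:115824521-115825825, spanned 1305 and 1200 bp and was also occupied by SOX6 in OLs of EpiSC5. H3K27ac covered 76.9 kb and 57.2 kb in OPCs of 129O1 and EpiSC5 and 78.9 kb and 61.2 kb in OLs, slightly more in OLs of each line. After scaling the lists to equal covered length the change was −0.09 ± 0.10 on the log2 scale (± is the SE; limma adjusted p = 0.506), and without scaling it was 0.07. The levels of OPCs and OLs overlapped across the lines, and Sox6 was not called in either case.

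Sox5, the other SOXD gene of the lineage, had a mixed pattern. Of its 15 shared sites, 3 were acetylated in both states, 3 in OPCs only, 1 in OLs only and 1 in neither, and the lines disagreed on 7. H3K27ac covered 19.2 and 20.5 kb in OPCs and 10.5 and 16.6 kb in OLs, a change of −0.70 ± 0.17 (limma adjusted p = 0.0275), a call that was lost without the cell line as a block and without scaling. Its SOX6 site at chr6:143941254-143941719 was OPC only in each line, with OPC H3K27ac of 2254 and 2070 bp. Its site at chr6:144166088-144166446 was OL only in each line, with OL H3K27ac of 653 and 792 bp.

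After Sox6, the genes with most sites acetylated in both states were Opcml with 11, Trio, Rere and Gse1 with 9 each, and Abtb2 with 8. Opcml encodes a cell adhesion protein of the IgLON family, Trio a guanine nucleotide exchange factor of small GTPases, and Rere a corepressor related to atrophin. All 5 had more H3K27ac in OLs of each line. Opcml was covered over 26.997 and 19.8 kb in OPCs and 70.9 and 80.013 kb in OLs (1.51 ± 0.15, limma adjusted p = 0.00267). Trio went from 49.0 and 40.9 kb to 95.2 and 82.4 kb (0.81 ± 0.11, limma adjusted p = 0.00523). Abtb2, whose 8 shared sites were all of this class, went from 15.1 and 13.8 kb to 40.1 and 38.6 kb (1.23 ± 0.14, limma adjusted p = 0.00358). Gse1 (1.15) and Rere (0.61) were also called wider, the call of Rere being lost with a window of 50 kb. In these 5 genes, OPC and OL values of the lines did not overlap.

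Per kb, the leading gene of this class was H1f3, a linker histone gene of 0.776 kb with 4 sites in its window. Among them were sites 6.36 and 7.16 kb outside the gene, so rank and breadth describe the window more than the gene. H3K27ac in this window fell from 9.34 and 7.98 kb in OPCs to 5.01 and 3.33 kb in OLs (−1.06 ± 0.19, limma adjusted p = 0.0127). The lineage factors with short genes also had all or nearly all shared sites in this class. Olig2, which specifies the lineage, had 4 of 4, with H3K27ac of 13.5 and 11.2 kb in OPCs and 13.4 and 11.6 kb in OLs (−0.13 ± 0.16, limma adjusted p = 0.531). Sox10, the SOXE factor that drives myelin genes, had 3 of 3, with 8.68 and 7.73 kb in OPCs and 9.85 and 9.27 kb in OLs (0.06 ± 0.17, limma adjusted p = 0.804). Olig1 had 3 of 4 and Nkx2-2 had 2 of 3, and neither gene was called. The OPC proteoglycan gene Cspg4, which encodes NG2, had 4 of 4, with 16.8 and 12.1 kb in OPCs and 12.4 and 9.83 kb in OLs (−0.49 ± 0.16, limma adjusted p = 0.0634).

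For genes of newly forming and myelinating OLs the sites acetylated in both states are given beside the breadth. Fyn, a kinase gene of differentiating OLs, had 7 of 7 shared sites in this class, and its H3K27ac went from 33.0 and 30.8 kb to 110 and 92.9 kb (1.48 ± 0.12, limma adjusted p = 0.00192). Tns3, a tensin gene, had 6 of 10, with 4 sites on which the lines disagreed, and went from 19.4 and 11.7 kb to 100 and 87.5 kb (2.41 ± 0.14, limma adjusted p = 0.00132). Tcf7l2, a transcription factor of Wnt signalling, had 5 of 5 and went from 19.2 and 15.0 kb to 41.4 and 27.4 kb (0.80 ± 0.16, limma adjusted p = 0.0167). Nfasc, an adhesion gene, had 2 of 2 and went from 7.98 and 2.81 kb to 68.0 and 52.9 kb (3.25 ± 0.22, limma adjusted p = 0.00153). Mbp, the gene of myelin basic protein, had 2 sites in this class and was wider by 2.18, Zfp488 had 1 and was wider by 1.06, a call lost without the cell line as a block, and Bcas1 had 2 and was not called at 0.27.

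OPC-only sites were most numerous at Atxn7l1, Srgap2, Dennd1a, Dgkb, Nrxn3 and Macrod2, with 4 each. These genes were chosen through the H3K27ac lists that also give the breadth, so their p-values are no independent support for narrowing. Srgap2 encodes a GTPase-activating protein of Slit and Robo signalling, Dennd1a an activator of a Rab protein in endocytosis, Dgkb a diacylglycerol kinase, and Nrxn3 a neurexin of synapses. At Srgap2, on chr1:131285251-131527531, the 4 OPC-only sites had OPC H3K27ac peaks of 1215 to 2575 bp in 129O1 and 1064 to 2547 bp in EpiSC5 and none in OLs. The widest, at chr1:131482966-131483983, had SOX6 peaks of 886 and 791 bp. H3K27ac over the gene went from 17.5 and 19.6 kb in OPCs to 6.41 and 5.18 kb in OLs (−1.67 ± 0.20, limma adjusted p = 0.00405). Dgkb went from 15.6 and 16.9 kb to 4.79 and 3.93 kb (−1.83 ± 0.20, limma adjusted p = 0.00324). OPC and OL values did not overlap at either gene.

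The other 4 narrowed less or were not called. Nrxn3 went from 22.4 and 16.3 kb to 5.61 and 11.2 kb (−1.31 ± 0.28, limma adjusted p = 0.0198) and Atxn7l1 from 8.11 and 4.95 kb to 2.996 and 3.12 kb (−0.98 ± 0.20, limma adjusted p = 0.0172). The call of Atxn7l1 was lost without scaling, and that of Nrxn3 without scaling and without the cell line as a block. Dennd1a was called at −0.87. Macrod2, at −0.37 ± 0.16 (limma adjusted p = 0.128), was not called even though 4 of its 7 shared sites were OPC only. Among OPC genes, Pdgfra had 4 shared sites, of which 1 was acetylated in both states, 1 in neither, and 2 in both states in 129O1 and OPCs only in EpiSC5. Its change was −2.46 ± 0.20 (limma adjusted p = 0.00192). Ptprz1, a receptor phosphatase gene of OPCs, had 2 shared sites, 1 acetylated in both states, and went from 18.5 and 16.3 kb to 5.97 and 4.21 kb (−1.75 ± 0.19, limma adjusted p = 0.00317).

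**Figure D5:**
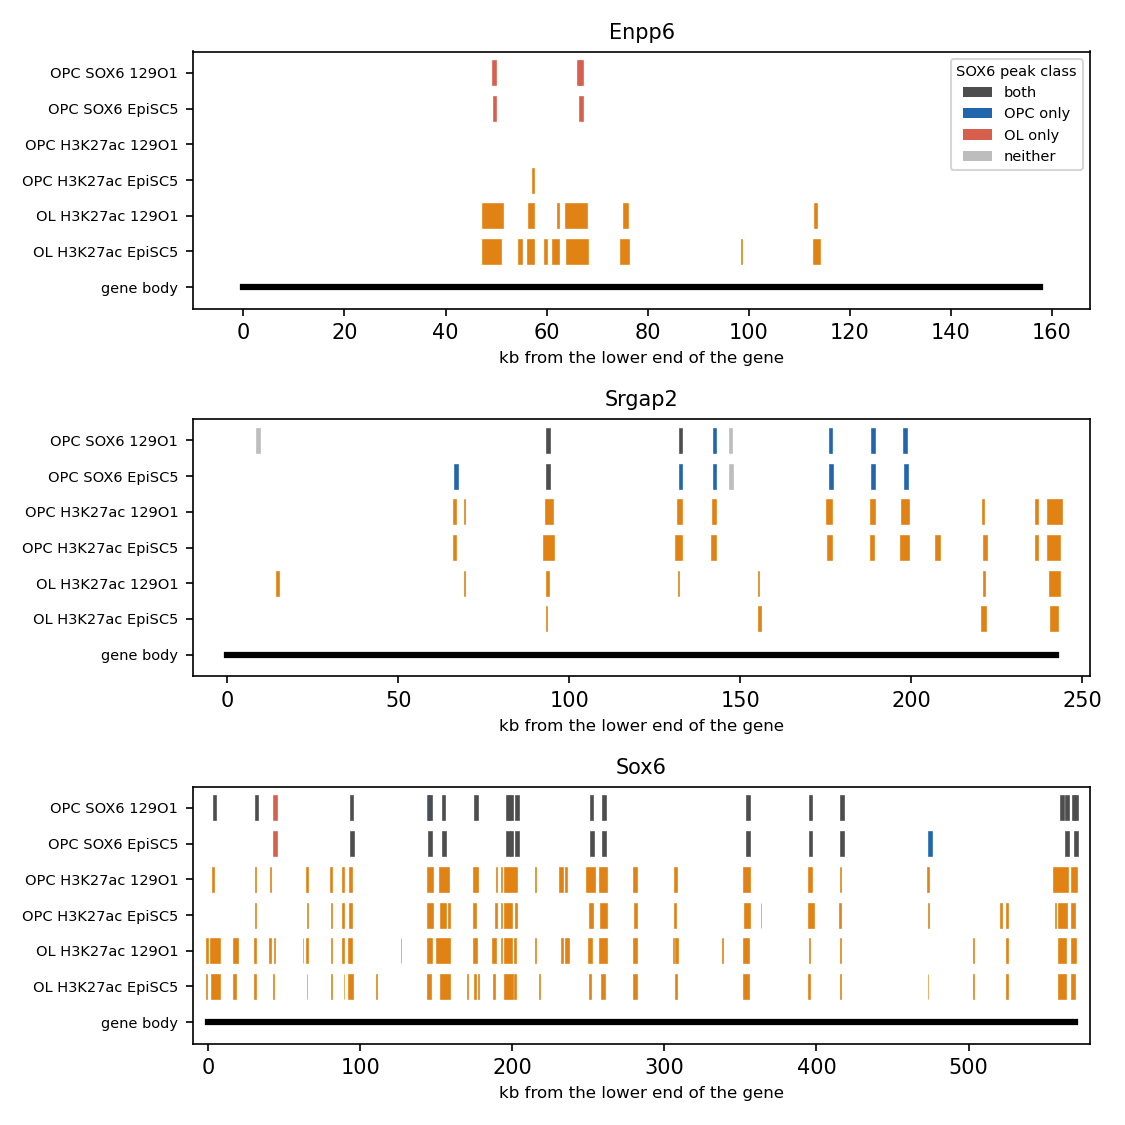
Peak positions over Enpp6, Srgap2 and Sox6 (x axis: kb from the lower end of each gene), with OPC SOX6 peaks coloured by H3K27ac class above the OPC and OL H3K27ac peaks (orange) of each line; SOX6 peaks have a minimum drawn width so that they can be seen. At Enpp6, 2 shared OL-only SOX6 sites lie under the widest OL H3K27ac peaks, and 129O1 has 3 OL-only SOX6 peaks there in all. At Srgap2, 4 shared SOX6 sites lie on H3K27ac seen in OPCs alone. At Sox6, 13 of 14 shared SOX6 sites lie on H3K27ac of both states.

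OL-only sites were fewest, and genes of newly forming OLs were among those that held them. Enpp6, which encodes a choline phosphodiesterase typical of newly forming OLs, had 2 shared SOX6 sites in OPCs, and each was OL only in each line. They lay inside the gene at chr8:46988446-46988853 (SOX6 peaks of 408 bp in 129O1 and 253 bp in EpiSC5) and chr8:47005625-47006098 (467 and 474 bp). No OPC H3K27ac peak touched them, and the OL H3K27ac peaks over them measured 4294 and 3778 bp at the former and 4496 and 4266 bp at the latter. Both were occupied by SOX6 in OLs of EpiSC5 too. H3K27ac over Enpp6 covered 0 and 0.411 kb in OPCs and 11.986 and 15.4 kb in OLs. SOX6 therefore lay in progenitors of both lines on the places where the broadest OL acetylation of Enpp6 was later found, as the map of the locus shows.

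Itpr2, an inositol trisphosphate receptor gene, had 6 shared sites, 2 OL only, 1 acetylated in both states and 3 on which the lines disagreed. Its OL-only sites lay at chr6:146111511-146111727 and chr6:146114856-146115151, and OL H3K27ac over them measured 1779 and 1891 bp in 129O1 and 5225 bp for the 2 sites together in EpiSC5. The gene went from 16.2 and 8.97 kb to 42.0 and 39.3 kb (1.52 ± 0.18, limma adjusted p = 0.00387). Mobp, a myelin protein gene, had 1 shared site, OL only, at chr9:120155049-120155351 (237 and 298 bp), and went from 0.593 and 0 kb to 6.94 and 11.0 kb. Myrf, the transcription factor that starts myelin gene expression, had 2 sites acetylated in both states and 1 OL-only site 2.23 kb outside the gene at chr19:10243007-10243297. It went from 5.51 and 4.32 kb to 13.7 and 15.7 kb (1.28 ± 0.18, limma adjusted p = 0.00663). Frmd4a had 7 sites acetylated in both states and 1 OL only, and was wider by 1.11. At none of these genes did OPC and OL breadth overlap.

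By number, Lsamp led this class with 4 OL-only sites, followed by Abr, Bach2, Plcl1 and Sema5a with 3 each and Pmepa1 with 2. The choice used the same H3K27ac lists as the breadth, so the p-values of these genes are no independent support for widening. Lsamp encodes an IgLON adhesion protein, Abr a regulator of small GTPases, Bach2 a transcriptional repressor known from lymphocytes, Sema5a a semaphorin and Pmepa1 an inhibitor of TGF-beta signalling. Plcl1 and Pmepa1 had no shared site of another class. Plcl1 went from 6.91 and 4.52 kb to 22.9 and 28.8 kb (1.87 ± 0.22, limma adjusted p = 0.00364), with OL H3K27ac of 1829 to 2840 bp over its 3 sites. Pmepa1 went from 1.73 and 1.52 kb to 12.1 and 10.6 kb (2.11 ± 0.18, limma adjusted p = 0.00192). Sema5a went from 17.5 and 12.8 kb to 61.4 and 64.0 kb (1.84 ± 0.15, limma adjusted p = 0.00192). Abr (1.29) and Bach2 (1.27) were called wider as well. Lsamp, which had 19 shared sites in all classes, was wider by 0.78 ± 0.17 (limma adjusted p = 0.0206), a call lost without scaling and without the cell line as a block.

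Sites acetylated in neither state were most numerous at Magi2 and Nrxn3 with 5 each, and at Rab3c, Adk, Camk1d and Robo1 with 4 each. Magi2 encodes a synaptic scaffold, Rab3c a GTPase of vesicle release, Adk adenosine kinase and Robo1 a Slit receptor. Rab3c had little H3K27ac in any list, from 0.262 to 1.11 kb, and was not tested. Magi2 covered 14.0 and 11.95 kb in OPCs and 13.0 and 11.7 kb in OLs (−0.21 ± 0.16, limma adjusted p = 0.332), Adk 9.22 and 9.14 kb and 9.02 and 11.7 kb (0.01 ± 0.17, limma adjusted p = 0.980), and Robo1 4.22 and 4.26 kb and 2.88 and 3.56 kb (−0.44 ± 0.17, limma adjusted p = 0.0983). Camk1d was narrower by −0.66, a call lost without scaling and without the cell line as a block. Of the 6 genes with most sites in this class, Nrxn3 and Camk1d were thus called, and none was called wider.

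The widest agreed sites show the extremes of each class. Among sites acetylated in both states the widest lay 32.0 kb from Olig2 at chr16:91191263-91193570, with SOX6 peaks of 2308 and 2142 bp on OPC H3K27ac of 3970 and 3105 bp and OL H3K27ac of 3572 and 3167 bp. Others were 33.2 kb from Mef2d, 235 kb from Plekhb2, 79.3 kb from Ptprz1 and 152 kb from Tmem161b. Among OPC-only sites the widest was inside Tex14 at chr11:87426572-87427888 (1254 and 1307 bp), followed by sites near Marcks, Tle1, Fyn (77.5 kb away) and Lpp. Among OL-only sites it lay 21.1 kb from Zfp11 at chr5:129632404-129633458 (1055 and 823 bp), followed by sites in Elapor1, Plxna2 and Cep112 and one near Ttc29. The distance to a nearest gene does not show that the gene is the target of a site. Plxna2, a semaphorin receptor gene with an OL-only site, was narrower in OLs by −1.32 ± 0.21 (limma adjusted p = 0.00866), so an OL-only site also occurred in a gene that lost breadth.

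In the class acetylated in neither state, the widest site overlapped the immediate early gene Egr1 (2875 and 1738 bp) but no promoter window. Egr1 had 3 shared sites, of which 1 was acetylated in both states. The other widest sites of the class lay in Cacng4 (1336 and 1310 bp) and near Ifna13, Sec14l1 and Wt1. The authors' SOX6 fold enrichment was 4.13 and 3.06 at Egr1 and 2.95 and 2.18 near Sec14l1, and 12.8 and 12.3 at Cacng4. Broad SOX6 peaks without acetylation were thus of unlike height. Cacng4, an auxiliary subunit gene of AMPA receptors used as an OPC marker, was also occupied at this site in OLs of EpiSC5, and its breadth of 12.7 and 9.81 kb in OPCs and 18.996 and 7.47 kb in OLs was not called (−0.05 ± 0.26, limma adjusted p = 0.882).

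Read by gene list, SOX6 sites in OPCs were found at most genes of the lineage. They were found at most astrocyte and housekeeping genes too, at lower shares, and at 1 of 14 pluripotency genes. Of the OPC list, 24 of 30 genes had a shared site (80%). For immature OL genes it was 19 of 25 (76.0%), for myelin genes 21 of 31 (67.7%), for lineage transcription factors 12 of 15 (80%) and for feedback genes of MAPK signalling 15 of 18 (83.3%), beside 32% of all genes. For comparison, astrocyte genes had 8 of 14, housekeeping genes 7 of 12, neuron genes 7 of 16, cell cycle genes 5 of 18, cholesterol synthesis genes 5 of 20, microglia genes 3 of 12 and pluripotency genes 1 of 14. Median gene length was 31.3 kb for the OPC list, 93.2 kb for immature OL and 21.3 kb for myelin. It was 18.95 kb for lineage factors and 11.1 kb for MAPK feedback, beside 17.5 kb for all genes. For astrocyte, housekeeping and pluripotency genes it was 9.83, 5.64 and 8.85 kb. The part of gene length in these counts was not tested. Sites acetylated in both states were found in the first 5 lists at 23 (76.7%), 18 (72%), 17 (54.8%), 11 (73.3%) and 10 genes (55.6%), beside 21.1% of all genes. This class was also the commonest over all genes, at 4369 of the 6605 with a site, and in the astrocyte (6 of 8), microglia (3 of 3) and housekeeping lists (6 of 7). The lists were chosen with earlier results of these data known and carry no test.

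OPC-only sites were found at 5 of 30 OPC genes (Nfia, Lhfpl3, Pcdh15, Fabp7 and Megf11) and at 6 of 18 MAPK feedback genes (33.3%, beside 4.11% of all genes). The latter were Spry4, Etv1, Etv5, Myc, Ier2 and Il17rd, among them inhibitors of receptor tyrosine kinase signalling (Spry4, Il17rd) and ETS factors induced by it (Etv1, Etv5). Spry4 had OPC H3K27ac over 9.92 and 6.91 kb and OL H3K27ac over 1.49 and 0 kb. Etv5 had 8.88 and 7.43 kb in OPCs and 3.02 and 1.07 kb in OLs. No immature OL or myelin gene had an OPC-only site that both lines agreed on. With 4.11% of all genes holding one, lists of 25 and 31 genes are too short to set this absence apart. Ccnd1, a cyclin gene of the MAPK list, had no SOX6 peak in either line and had H3K27ac over 8.37 and 6.17 kb in OPCs and 0.412 and 0 kb in OLs. Among cell cycle genes, OPC-only sites lay at Mcm2 and Ccnd2.

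OL-only sites were found at 5 of 25 immature OL genes (Enpp6, Itpr2, Frmd4a, Lims2 and Rnf122; 20.0%, beside 2.43% of all genes), 3 of 31 myelin genes (Mobp, Myrf and Pllp) and 4 of 15 lineage factors (Sox5, Sox6, Zfp536 and St18). Zfp536 had 2 OL-only sites, with H3K27ac over 9.12 and 3.98 kb in OPCs and 27.048 and 32.5 kb in OLs, and St18 had 2, with 3.91 and 2.78 kb and 10.5 and 13.4 kb. Of 18 MAPK feedback genes none had one, and of 30 OPC genes Tnr did, counts too small to set apart from 2.43%. Tnr, an extracellular matrix gene, had 11 shared sites, 5 of them acetylated in both states in each line, and H3K27ac over 17.7 and 11.2 kb in OPCs and 153 and 114 kb in OLs. Srebf2, a transcription factor of cholesterol synthesis, had 1 shared site, which was OL only. Zeb2, a lineage factor with 1 OPC-only site, had more H3K27ac in OLs, at 36.018 and 42.7 kb against 13.7 and 16.6 kb, so the class of a site did not fix the direction of its gene. Sites acetylated in neither state were found at 2 genes each of the OPC (6.67%), immature OL (8%), myelin (6.45%) and MAPK lists (11.1%), beside 4.94% of all genes.

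To ask how acetylation changed around OPC SOX6 without choosing regions by H3K27ac class, chromosomes 1 to 19 were cut into bins of 10 kb. H3K27ac-covered length was tested in the 16004 bins with a mean of at least 1 kb. With limma, 2373 bins were wider in OLs (14.8% of bins) and 1300 narrower (8.12%). An unadjusted p under 0.05 was found for 6777. The median change was −0.25, or −0.11 without scaling. Of the calls 64.6% were wider, and without scaling 75.9%.

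The calls in bins with OPC SOX6 of both lines are set beside those in bins with SOX6 in neither line, with no contrast drawn. Of 13051 SOX6 bins, 6767 could be tested and 1555 had no H3K27ac in any list. Of those tested, 721 were wider (10.7%) and 788 narrower (11.6%), beside 21.1% and 4.84% of the 6369 tested bins with SOX6 in neither line. With 1 shared site the shares were 10.9% and 10.7%, with 2 sites 8.70% and 17.8%, and with 3 or more sites, in 75 bins, 5.33% and 16.0%. Without scaling, 10.5% of SOX6 bins were wider and 6.95% narrower, so that the balance of calls in SOX6 bins turned to wider. Of bins with SOX6 in neither line, 21.0% were then wider and 2.62% narrower, so the narrower share fell in each set. With 129O1 left out, bins were counted where EpiSC5 changed by 1 or more (log2), in place of the test. In that count 11.0% of SOX6 bins were wider and 20.1% narrower. The 1 kb filter passed these bins unequally. Of the SOX6 bins, 1320 passed it through OPC H3K27ac alone and 567 through OL H3K27ac alone and so had to differ, beside 4880 over 1 kb in both states. Of the bins with SOX6 in neither line, 1387 passed through OPCs alone, 1572 through OLs alone and 3410 in both states. The counts of calls carry these bins and were given no test.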

How the data were processed

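OPC SOX6, OPC H3K27ac and OL H3K27ac were used for the lines 129O1 and EpiSC5, and OL SOX6 for EpiSC5, 7 lists in all. Both input samples were not analysed here. The submitters' processing notes name mm10 as the build and, as tools, Bowtie2 2.3.2, Trim Galore 0.3.1, bedtools, deepTools and Picard. Not given in the sources used here are the peak caller, its control and the sequencer of each library. The deposited lists have no header. The score of a peak, the authors' fold enrichment (the ratio of its signal to background) and the deposited −log10 p and −log10 q served only to describe or rank peaks of the same list. Each list belongs to 1 library.

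SOX6 peaks of chromosomes 1 to 19 were classed by overlap of 1 bp or more with the H3K27ac lists of the same line. Peaks of the lines were merged into sites, and a site was agreed where both lines held it in 1 class. Genes and promoters came from RefSeq tables of GRCm38.p6, with a gene window of 10 kb each side. Of the list genes, 4 on the X chromosome (Gria3, Gjb1, Hprt and Pgk1) were left out. H3K27ac-covered kb per gene or 10 kb bin was scaled so that all lists covered the same total, and log2 was taken after adding 1 kb (genes) or 0.5 kb (bins). Changes on this scale understate those of genes with little coverage. limma 3.58.1 (R 4.3.3, with trend; terms for state and cell line; prior degrees of freedom 5.29 for genes and 2.99 for bins, beside 1 residual) was used with Benjamini-Hochberg adjustment, after it was tested on simulated data. The cell line was a block because OPCs and OLs of a line share it. Overlaps were computed in Python 3.11.15 with pandas 2.3.3 and numpy 2.4.6, and Wilson intervals with scipy 1.17.1.

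Genes named were, per class, the 6 with most agreed sites, the 5 widest sites, the gene with most sites per kb among those with at least 3, and 25 fixed genes. Members of the 12 fixed lists could also be named. Gene lists covered OPC, immature OL, myelin, lineage factor, MAPK feedback, cell cycle, cholesterol, astrocyte, neuron, microglia, pluripotency and housekeeping genes. The promoters of Pde1a, Cntn6 and Map2k6 were chosen after their values were seen, as were Tenm2 and the values of Tnr and Zeb2. The members and lists were chosen with earlier results of these data known. Alternatives were other overlap rules, shorter lists, added sex chromosomes, other gene windows, another pseudocount, filter, scaling and bin size, a model without the block, and each line alone. Equal numbers of SOX6 peaks, widths off promoters and widths of shared peaks were added after the data were seen.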

Additional observations from a re-analysis of the deposited data

How the results depend on the processing

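The order of the classes by median width (mean of the lines) was the same in every alternative run, and both states stayed the largest class and OL only the smallest. OPC only was larger than neither among the higher-scoring SOX6 peaks of each line and, with equal numbers of H3K27ac peaks, in EpiSC5. Many values moved by more than the small spread between the lines. Requiring 50% of the SOX6 peak to be covered gave 25.2% in neither and median widths (mean of the lines) of 285.25 bp for OL only, 352.5 for both states and 264.5 for neither. With the summit inside H3K27ac these were 25.2%, and 286, 318 (OPC only), 352 and 264.5 bp. In the SOX6 peaks with the higher −log10 q (50% of each list) both states held 56.5% and neither 15.9%, widths were 425, 372.5, 339 and 323.5 bp (both states, OPC only, OL only, neither), and gene counts were 2485, 412, 219 and 410. Equal numbers of H3K27ac peaks gave 24.4% in neither and 352 bp for both states, and adding X and Y 22.2% in neither. Of the settings chosen after seeing the data, equal numbers of SOX6 peaks gave 20.3% in neither and widths of 374, 329, 297.5 and 278.5 bp, peaks off promoters 365.5 bp for both states, and shared peaks 384, 334, 307.75 and 285 bp. A gene window of 50 kb gave 7763, 1688, 1032 and 2086 genes. Each line alone gave 4706 to 7456, 1785 to 1833, 1002 to 1301 and 1661 to 2228 genes, because agreement was no longer asked for. Without a filter on covered length 6439 bins were wider and 4757 narrower, with 17.97% of SOX6 bins narrower. Without scaling 751 bins were narrower, and 6.95% of SOX6 bins. With each line alone, called at a log2 change of 1 with no test, 1236 to 2868 bins were narrower, and 10.7% to 20.1% of SOX6 bins, the higher values without 129O1. Without the replicate block (the cell line) 2213 bins were wider and 1368 narrower, with 9.52% and 11.8% of SOX6 bins, and the calls of Camk1d, Lsamp, Nrxn3, Sox5, Tmem161b and Zfp488 were lost. Without scaling, Atxn7l1, Camk1d, Lsamp, Nrxn3 and Sox5 were lost, and with the 50 kb window Rere was lost and Mef2d gained (−0.64). No change of a named gene turned its direction after a call, and the cause of these moves was not tested beyond what each setting itself does. Depth is unknown and limits every statement of absence.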

Other observations

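On the X and Y chromosomes, left out of the classes above, OPC SOX6 peaks numbered 556 in 129O1 and 321 in EpiSC5. In 129O1, 249 were acetylated in both states, 139 in OPCs only, 28 in OLs only and 140 in neither. In EpiSC5 the numbers were 123, 88, 21 and 89.

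Of the 55 genes with both an OPC-only and an OL-only site, 4 are given here, chosen after their values were seen. Lsamp had 2 OPC-only and 4 OL-only sites, Tenm2, a teneurin adhesion gene, had 3 and 2, and Ntm, another IgLON gene, had 3 and 1. Their H3K27ac covered 33.4 and 26.2 kb in OPCs and 49.6 and 66.3 kb in OLs for Lsamp, 13.4 and 11.1 kb and 8.34 and 8.30 kb for Tenm2, and 15.3 and 13.8 kb and 13.9 and 12.1 kb for Ntm. Map2, a microtubule protein gene on the neuron list, had 4 sites acetylated in both states, 2 OPC only and 1 OL only, and covered 37.4 and 31.0 kb in OPCs and 15.5 and 9.09 kb in OLs.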
